A study of Mus musculus with 8 samples.

Results

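The nuclear-encoded subunits of oxidative phosphorylation were taken by their gene symbols: the NADH dehydrogenase subunits Ndufa, Ndufb, Ndufc, Ndufs and Ndufv followed by a number, Sdha to Sdhd, every symbol that starts with Uqcr, Cox4 to Cox8, and every symbol that starts with Atp5. The assembly factors Ndufaf were left out. The files listed 81 such genes among 16794, of which 37 belong to complex I by name, 4 to complex II, 8 to complex III, 16 to complex IV and 16 to complex V. Ndufa4 counts as complex I by its symbol, although its protein is known as a subunit of complex IV. Ndufa4l2, Cox7a2l and Atp5s match by name without being core subunits, and Ndufab1, Usmg5 and Cyc1 fall outside the symbols used. The 13 subunits encoded by mitochondrial DNA were not found in the files under the symbols searched, and were not analysed here.

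The measurements are RNA sequencing of whole liver from 4 mice with a liver-specific knockout of E4bp4 (E4bp4-LKO, mice 143, 144, 145 and 179) and 4 wild-type mice (WT, mice 164, 165, 166 and 167). All 8 mice were 2 months old when they were put on a diet that induces non-alcoholic steatohepatitis (NASH), and stayed on it for 20 weeks. E4bp4 is the protein name of Nfil3, a repressor of transcription known to bind the D-box. The title of the study asks about E4BP4 of hepatocytes in liver fibrosis. The labels name neither the Cre line behind the knockout nor strain, sex or litter, so genetic background cannot be told apart from loss of E4bp4.

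Oxidative phosphorylation makes most of the ATP of the liver cell. Complex I and complex II pass electrons from NADH and succinate to coenzyme Q, complex III hands them to cytochrome c, complex IV to oxygen, and complex V, the ATP synthase, uses the proton gradient that the others build. Complex II is encoded wholly in the nucleus, while the others join nuclear with mitochondrial subunits, and the factors NRF1, GABP (an ETS factor), ERR and the coactivator PGC-1α are known to set the nuclear genes' transcription together.

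Some of the members' promoters hold motifs of NRF1, ETS factors and ERR. RefSeq promoters (GRCm38.p6, 250 bases before to 50 bases after the start) were matched to 67 of the 81 members, and each motif was searched on both strands by its letters. The following stretches are shown as 1 example of each motif, each 5′ to 3′ on the gene's own strand, with the motif in capitals. They lie within the 250 bases before the start, and the capitals of no stretch overlap another of these motifs.
Sdha, NRF1 motif, chr13:74350284-74350383, minus strand: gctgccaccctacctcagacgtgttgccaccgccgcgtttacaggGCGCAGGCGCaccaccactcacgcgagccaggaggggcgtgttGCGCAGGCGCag
Ndufs3, ETS motif, chr2:90904722-90904821, minus strand: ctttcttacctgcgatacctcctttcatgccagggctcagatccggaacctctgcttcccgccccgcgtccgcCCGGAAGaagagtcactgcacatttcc
Atp5g3, ERR motif read on the other strand, chr2:73911327-73911426, minus strand: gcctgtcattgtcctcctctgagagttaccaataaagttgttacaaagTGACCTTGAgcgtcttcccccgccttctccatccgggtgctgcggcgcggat
Cox7b, D-box, chrX:106015463-106015562, plus strand: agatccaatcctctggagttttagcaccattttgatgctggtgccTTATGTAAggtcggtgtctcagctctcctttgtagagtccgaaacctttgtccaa

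The NRF1 motif, GCGCNNGCGC, stood in the promoters of 18 members (26.9% of the 67), against 6.997% of all 27025 genes with a promoter and 14.2% of the genes tested. The ETS motif, CCGGAAG, stood in 16 members (23.9%), against 9.93% of all genes and 19.0% of the genes tested. The ERR motif, TCAAGGTCA, was found in Atp5g3 and Sdhd (2.99%), against 0.466% of all genes and 0.321% of the genes tested. The D-box, searched as TTATGTAA and TTACGTAA, was found in Cox7b alone (1.49%), against 1.23% of all genes and 0.944% of the genes tested. A match is a description of these letters in this window, and the fold changes did not sort by it: the median estimate, which here means the log2 fold change of E4bp4-LKO over WT, was 0.11 for the tested members with the NRF1 motif and 0.097 for those without. For the ETS motif the medians were 0.091 with it and 0.099 without. Cox7b itself had 107, 105, 116 and 104 CPM in E4bp4-LKO livers, against 83.4, 102, 112 and 105 CPM in WT livers, where CPM is the count scaled to library size after TMM. The groups overlapped, and its estimate was 0.10 (SE 0.093, adjusted p = 0.522).

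The libraries held 23805540 to 32290265 expected counts in E4bp4-LKO and 28477075 to 30200874 in WT. Nfil3 measured 3.33, 6.22, 6.14 and 3.35 CPM in E4bp4-LKO livers, against 11.4, 8.79, 12.1 and 16.5 CPM in WT livers. It was lower in every E4bp4-LKO liver (log2 fold change -1.35, SE 0.25, adjusted p = 0.0121). TMM, which scales libraries so that most genes keep their level, gave factors of 0.941 to 0.963 in E4bp4-LKO, and of 1.16, 1.09, 1.00 and 0.984 in WT 164, 165, 166 and 167. WT 164 and WT 165 therefore stand apart in scaling, so the members' summaries are also given on scales that do not use TMM and without those livers. The hepatocyte markers, which were present at high levels in all 8 livers, summed to 75984 to 93829 CPM over 8 genes in E4bp4-LKO, against 60839, 71135, 77272 and 77360 CPM in WT 164, 165, 166 and 167. Alb alone made up most of each sum, with 53382 to 68149 CPM in E4bp4-LKO and 43206 to 55064 CPM in WT. In whole tissue, fewer cells of a type and less RNA per cell cannot be told apart.

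Of the 81 members, 77 passed the filter on low counts and none was called changed at an adjusted p under 0.05 in edgeR's quasi-likelihood test. Of the 13242 genes tested, 4.37% were called higher and 6.48% lower. At an unadjusted p under 0.05 stood 4 members, Ndufs3, Sdhb and Ndufb11 with estimates above 0 and Ndufa4l2 with one below, against 28.3% of all genes. By the TMM scale 72 estimates lay above 0 and 5 below, and the median log2 fold change was 0.098, a 1.07-fold ratio, beside 0.0094 over all genes tested. The sign of that median turned with the scale: it was -0.051 with library totals in place of TMM, where the median of all genes was -0.15, and -0.052 on log2(FPKM + 1), where that of all genes was -0.11. Set against the median of all genes, the members lay 0.088 higher with TMM, 0.098 higher with library totals and 0.059 higher on FPKM.

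The intervals describe the precision on the TMM scale only. They do not cover the choice of scale, which moved the members' median from 0.098 to -0.051 with library totals. The median SE of a member's log2 fold change was 0.10, and the 95% interval of the fold change lay within 1.5-fold in either direction for 75 of the 77 tested members. The exceptions were Ndufa4l2 and Cox7a1, which had the lowest levels of the tested members. For Sdhb, with the highest upper bound, the interval ran from 0.045 to 0.52 on the log2 scale.

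**Figure D1:**
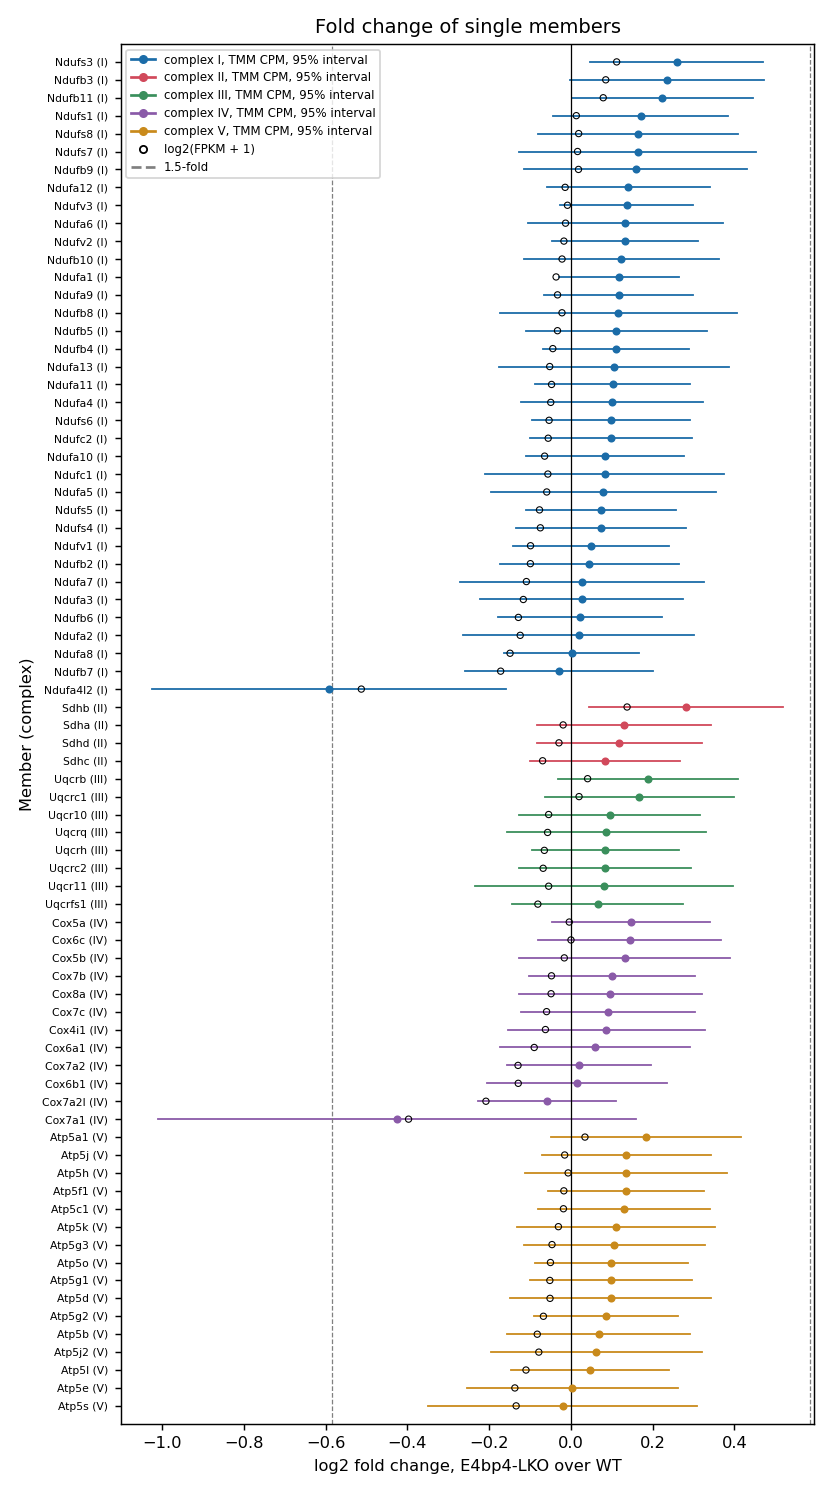
Log2 fold change of E4bp4-LKO over WT for 76 of the 77 tested members, grouped by complex. Filled points with lines are edgeR estimates on TMM-scaled counts with 95% intervals, open circles are limma estimates on log2(FPKM + 1), and dashed lines mark 1.5-fold; the filled points lie mostly above 0 (median 0.098) and the open circles mostly below it (median -0.052).

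The medians of the 5 complexes lay close together on each scale. By TMM the median log2 fold change was 0.10 over the 37 members of complex I, 0.13 over the 4 of complex II, 0.086 over the 8 of complex III, 0.088 over the 12 tested of complex IV and 0.098 over the 16 of complex V. On FPKM the medians were -0.049, -0.024, -0.056, -0.061 and -0.051 in the same order. The count of members called was 0 in each complex by TMM. These are descriptions of the lists and no test was run over them.

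The livers themselves were compared by a score: each member's log2 CPM, less its own mean over the 8 livers, was averaged over the members. Over all tested members the score was 0.015, 0.058, 0.077 and 0.035 in E4bp4-LKO 143, 144, 145 and 179, against -0.26, -0.13, 0.098 and 0.11 in WT 164, 165, 166 and 167. The E4bp4-LKO livers lay close together, inside the range of the WT livers, of which 2 were lower and 2 higher than all of them. On FPKM the scores were -0.034, -0.026, -0.0041 and -0.050 in E4bp4-LKO, against -0.055, -0.0096, 0.097 and 0.082 in WT, so that WT 164 and 165 then lay near the E4bp4-LKO livers.

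**Figure D2:**
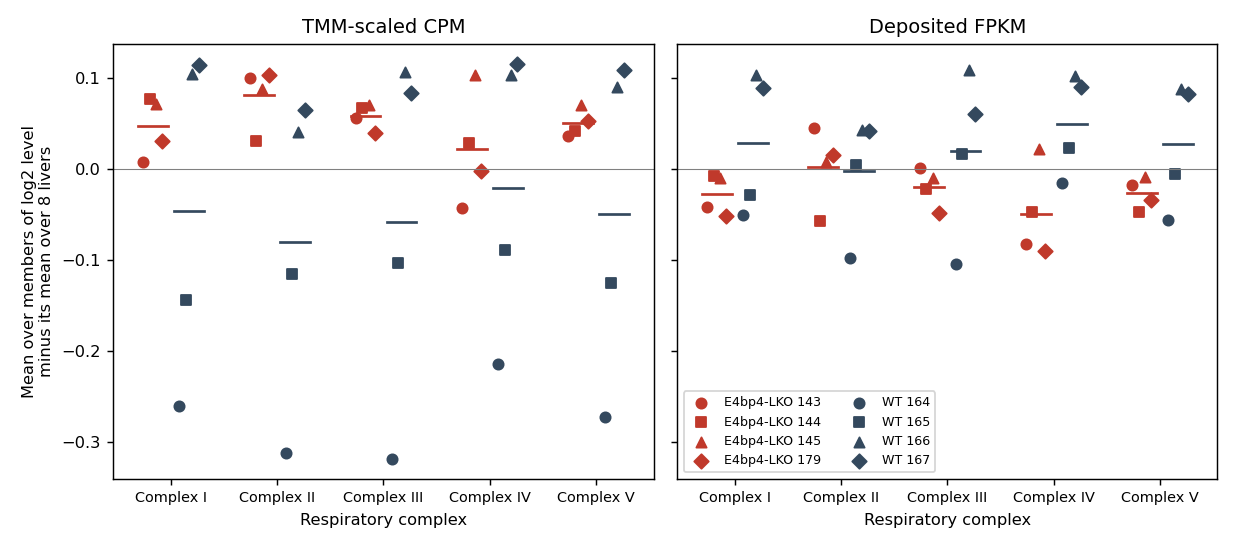
Score of each complex in each liver, the mean over its tested members of the log2 level minus that member's mean over 8 livers, from TMM-scaled CPM (left) and deposited FPKM (right). Points are livers, bars are group means, E4bp4-LKO in red left of WT in dark blue. On the left WT 164 lies from -0.32 (complex III) to -0.21 (complex IV), and WT 165 from -0.14 (complex I) to -0.089 (complex IV). On the right WT 164 lies from -0.10 (complex III) to -0.015 (complex IV), and WT 165 from -0.029 (complex I) to 0.022 (complex IV).

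WT 164 had the lowest TMM-scaled level of the 8 livers in 67 of the 77 members, and WT 164 and 165 were together the 2 lowest in 66 members (85.7%), against 15.6% of all genes tested. On FPKM they were the 2 lowest in 4 members (5.19%), against 4.24% of all genes. In TMM-scaled CPM the members' coefficient of variation between livers had a median of 5.95% in E4bp4-LKO and 12.7% in WT. Over all genes it was 10.86% in E4bp4-LKO and 10.96% in WT. WT was the more variable group in 72 of the 77 members (93.5%), against 49.7% of all genes.

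The marker sums of several cell types set WT 164 and 165 apart from the other WT livers, to differing degrees. That of sinusoidal endothelium did not, with 217, 240, 228 and 231 CPM in WT 164 to 167. In the same order T and NK cell markers summed to 6.82, 6.96, 6.45 and 5.35 CPM. B and plasma cell markers summed to 7.75, 5.55, 4.73 and 4.58 CPM, and neutrophil markers to 6.10, 3.39, 2.00 and 1.71 CPM. In E4bp4-LKO the endothelial sum was 218 to 301 CPM and that of T and NK cells 5.81 to 7.99 CPM. Those of B and plasma cells were 6.43 to 16.7 CPM, and of neutrophils 1.91 to 6.85 CPM. Jchain, of the B and plasma cell list, was called higher in E4bp4-LKO (edgeR log2 fold change 1.95, adjusted p = 0.0238). Elane, of the neutrophil list, was also called higher (1.90, adjusted p = 0.0114), at 3 to 20 counts in a library. No other gene of these lists was called. The summed level of 8 stellate cell markers was 254 to 401 CPM in E4bp4-LKO, against 1115, 614, 463 and 530 CPM in WT 164, 165, 166 and 167, with 4 of 8 markers called lower in E4bp4-LKO. Of the 8 macrophage markers 5 were called lower, and their sum was 551 to 744 CPM in E4bp4-LKO, against 963, 901, 846 and 748 CPM in WT 164 to 167. The 5 cholangiocyte markers summed to 77.4 to 104 CPM in E4bp4-LKO, against 470, 342, 192 and 191 CPM in WT, with 1 of 5 called lower. Spp1 made up most of that sum, and the other 4 summed to 10.5, 9.39, 12.6 and 8.08 CPM in E4bp4-LKO 143, 144, 145 and 179, against 32.9, 16.9, 12.4 and 13.1 CPM in WT 164 to 167, which overlap. The hepatocyte sum given above was lowest in WT 164. Its 7 genes other than Alb summed to 21936 to 26200 CPM in E4bp4-LKO, against 17633, 20643, 22837 and 22295 CPM in WT 164 to 167. Of the 8 hepatocyte markers 1 was called higher in E4bp4-LKO and none lower. In 2 of them every E4bp4-LKO liver was above every WT liver, and in 1, Tat, every one was below (log2 fold change -0.35, SE 0.12, edgeR adjusted p = 0.0918). The part of these in the members' values was not tested. Members have short transcripts, with a median length of 657 bases against 2831 bases over all genes, and genes of 500 to 1000 bases had scores of -0.070, -0.068, 0.064 and 0.062 in WT 164 to 167, while genes over 4000 bases had 0.12, 0.040, -0.059 and -0.060. The median log2 fold change of the other genes of 500 to 1000 bases was -0.011, beside 0.098 for the 42 members of that length, and the part of length was not tested further.

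**Figure D3:**
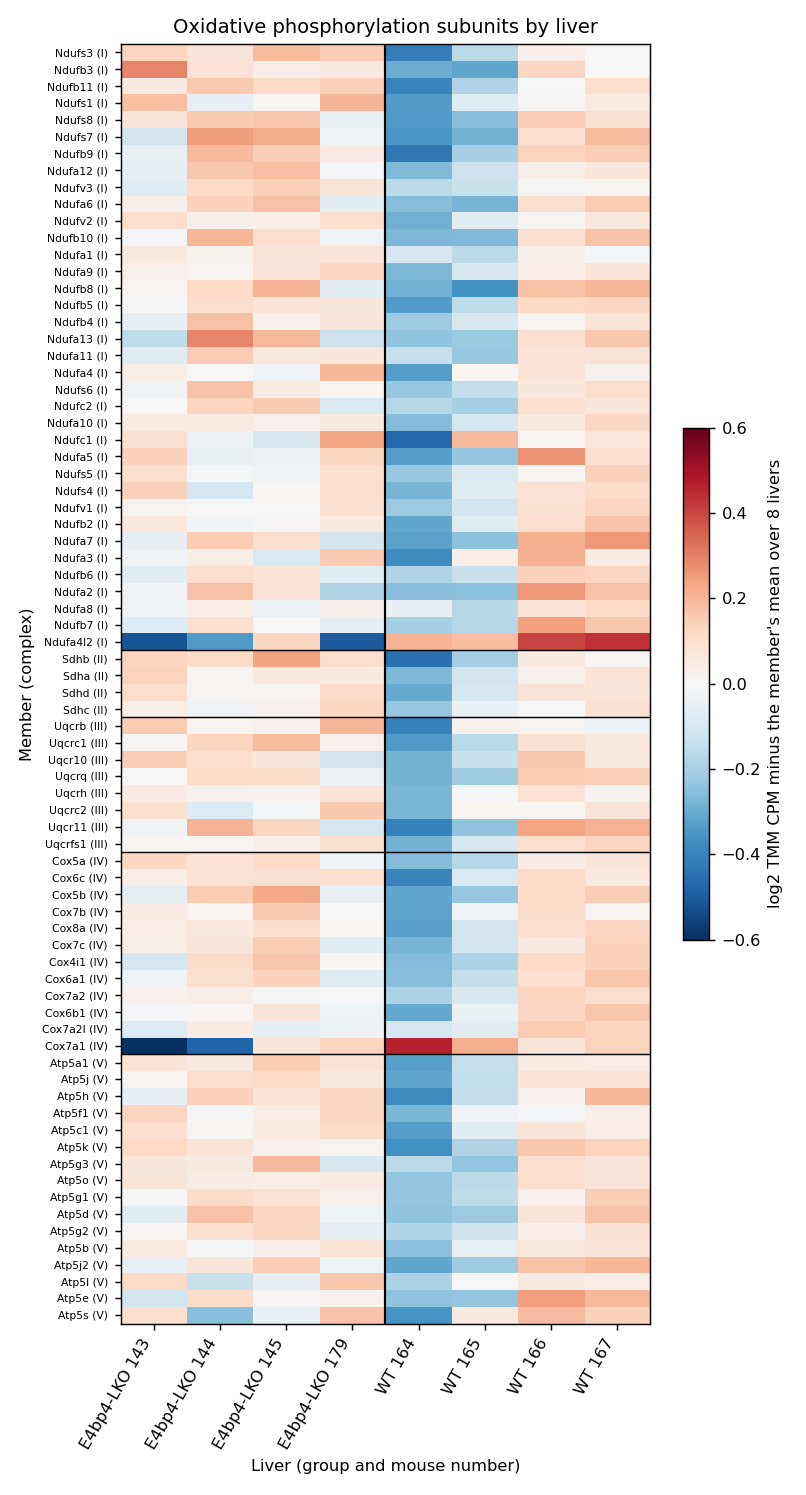
Heat map of 76 of the 77 tested members, in rows by complex, in the 8 livers, in columns with E4bp4-LKO left of WT. Colour is log2 TMM-scaled CPM minus the member's mean over the 8 livers; the column of WT 164 is the lowest in most members (67 of the 77 tested), while Ndufa4l2 and Cox7a1 are above their mean there.

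As a share of all expected counts, the 81 members made up 1.03% ± 0.014 in E4bp4-LKO and 1.06% ± 0.050 in WT (SD, n = 4 each). As a share of summed FPKM, which counts per length, they made up 2.24% ± 0.056 in E4bp4-LKO and 2.38% ± 0.094 in WT. By FPKM the most abundant members were Atp5b, the catalytic β subunit of the ATP synthase (607 ± 19.0 in E4bp4-LKO and 643 ± 22.2 in WT), Cox6a1 of complex IV (495 ± 32.5 in E4bp4-LKO and 527 ± 33.2 in WT) and Uqcrq of complex III (436 ± 21.8 in E4bp4-LKO and 455 ± 40.1 in WT). These levels overlap between the groups. The lowest tested members were Cox7a1, Ndufa4l2 and Atp5s, with mean FPKM over 8 livers of 2.10, 2.11 and 3.95.

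Complex I takes electrons from NADH along a flavin and iron-sulphur clusters held by its core subunits, around which accessory subunits are built. Ndufs3, a core subunit near the quinone site whose promoter holds the ETS motif printed above, had 106, 102, 110 and 107 CPM in E4bp4-LKO livers, against 72.4, 86.2, 99.3 and 96.7 CPM in WT livers. Every E4bp4-LKO liver was above every WT liver, and the estimate was 0.26 (SE 0.096, adjusted p = 0.106). On log2(FPKM + 1) it was 0.11 (limma, adjusted p = 0.274), with overlapping groups.

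Groups that do not overlap were few. In TMM-scaled CPM 3 members had every E4bp4-LKO liver above every WT liver (Ndufs3, Sdhb and Atp5a1), where 8.8% of all genes tested did, and Ndufa4l2 had every E4bp4-LKO liver below, where 9.68% of all genes did. In FPKM no member was above, where 2.92% of all genes were, and 5 were below (Ndufa4l2, Ndufa8, Cox7a1, Cox7a2 and Cox7a2l), where 18.4% of all genes were.

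Among the accessory subunits of complex I, Ndufb11, of the membrane arm, had 101, 109, 106 and 108 CPM in E4bp4-LKO livers, against 73.8, 86.0, 97.5 and 105 CPM in WT livers. The groups overlapped at WT 167 (log2 fold change 0.22, SE 0.10, adjusted p = 0.172). Ndufb11 had fractional counts in all 8 files. Ndufb9, the accessory subunit with the highest FPKM after Ndufa4, had 112, 132, 127 and 119 CPM in E4bp4-LKO livers, against 85.4, 100.2, 126 and 127 CPM in WT livers. WT 164 and 165 were the low livers here as well, and its estimate was 0.16 (SE 0.12, adjusted p = 0.444). Of the 37 members, 35 had estimates above 0 by TMM, and the range of estimates over the 36 members other than Ndufa4l2 ran from Ndufb7 (-0.028) to Ndufs3.

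Ndufa4l2 stood apart from the rest. It is a paralogue of Ndufa4 known as a hypoxia-induced gene, and it was near the low end of what was measured, with 31 to 78 counts in a library. It had 1.37, 1.55, 2.13 and 1.38 CPM in E4bp4-LKO livers, against 2.25, 2.23, 2.60 and 2.66 CPM in WT livers. All E4bp4-LKO livers were below all WT livers, E4bp4-LKO 145 by the least. The estimate was -0.59 (SE 0.20, adjusted p = 0.0772), short of the threshold. With library totals it was -0.75 (edgeR, adjusted p = 0.0338) and on log2(FPKM + 1) it was -0.51 (limma, adjusted p = 0.0109), so that the call depends on the scaling, while the direction does not. Without E4bp4-LKO 145 the estimate was -0.76 and just passed edgeR's threshold, as in none of the 7 other fits that left out a mouse. Ndufa4, its abundant paralogue, had 204, 199, 196 and 229 CPM in E4bp4-LKO livers, against 158, 200.4, 211 and 202 CPM in WT livers, with a log2 fold change of 0.10 (SE 0.10, adjusted p = 0.562). Ndufa4 made up 99.6% ± 0.10 of the FPKM of this pair in E4bp4-LKO and 99.4% ± 0.063 in WT (SD, n = 4 each).

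Complex II, succinate dehydrogenase, links the chain to the tricarboxylic acid cycle. Sdhb, its iron-sulphur subunit, had the largest estimate above 0 of all members, with 194, 191, 209 and 191 CPM in E4bp4-LKO livers, against 130, 154, 184 and 178 CPM in WT livers. The groups did not overlap, and the estimate was 0.28 (SE 0.11, adjusted p = 0.114). On log2(FPKM + 1) it was 0.14 (limma, adjusted p = 0.229). Sdha, the flavoprotein, had 554, 511, 528 and 526 CPM in E4bp4-LKO livers, against 419, 467, 515 and 534 CPM in WT livers, so the groups overlapped (log2 fold change 0.13, SE 0.097, adjusted p = 0.414). Sdhc and Sdhd, the membrane anchors, had estimates of 0.083 (adjusted p = 0.564) and 0.12 (adjusted p = 0.435). Counted per length, Sdhb averaged 173 ± 8.07 FPKM in E4bp4-LKO and 157 ± 13.3 FPKM in WT, near Sdha with 174 ± 7.72 FPKM in E4bp4-LKO and 177 ± 5.94 FPKM in WT (SD, n = 4 each).

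In complex III, Uqcrb, the subunit that helps to form the quinone site, had 123, 112, 113 and 127 CPM in E4bp4-LKO livers, against 83.6, 112, 112 and 108 CPM in WT livers. Only WT 164 lay far below the rest, and the estimate was 0.19 (SE 0.10, adjusted p = 0.243). Uqcrc1, a large matrix-side core protein, had 252, 275, 286 and 255 CPM in E4bp4-LKO livers, against 198, 224, 267 and 261 CPM in WT livers (log2 fold change 0.17, SE 0.10, adjusted p = 0.328). The groups overlapped in both genes. Uqcrh, the hinge protein at cytochrome c1, had an estimate of 0.085 (adjusted p = 0.543), Uqcrq, the most abundant member of the complex, one of 0.087 (adjusted p = 0.660), and Uqcrfs1, the Rieske iron-sulphur protein, the smallest of the 8 at 0.066 (adjusted p = 0.705). Uqcr11, a small subunit with the next highest FPKM, had 99.0, 116, 110 and 93.7 CPM in E4bp4-LKO livers, against 76.1, 85.1, 119 and 116 CPM in WT livers, with an estimate of 0.081 (adjusted p = 0.763).

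Complex IV is known for subunits that exist in tissue forms, and the livers used the forms known from liver. Cox4i1, Cox6a1, Cox6b1 and Cox8a each made up at least 99.7% of the FPKM of their pair in every liver. Their partners known from other tissues, Cox4i2 (lung), Cox6a2 and Cox8b (heart and skeletal muscle) and Cox6b2 (testis), had at most 12 counts in a library and did not pass the filter. Cox4i2 ranged from 0.10 to 0.50 FPKM over the 8 livers, Cox6a2 from 0 to 0.33, Cox6b2 from 0.08 to 0.81 and Cox8b from 0 to 0.59. They were tested only in fits without the filter on low counts, and edgeR called none of them there. The muscle list shares Cox7a1, Cox6a2 and Cox8b with the members, which make up most of its sum. Its 3 other genes in the files summed to 0.0740 to 0.402 CPM in E4bp4-LKO and 0 to 0.0351 CPM in WT, with Ckm and Myh4 under 3 counts in every library.

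**Figure D4:**
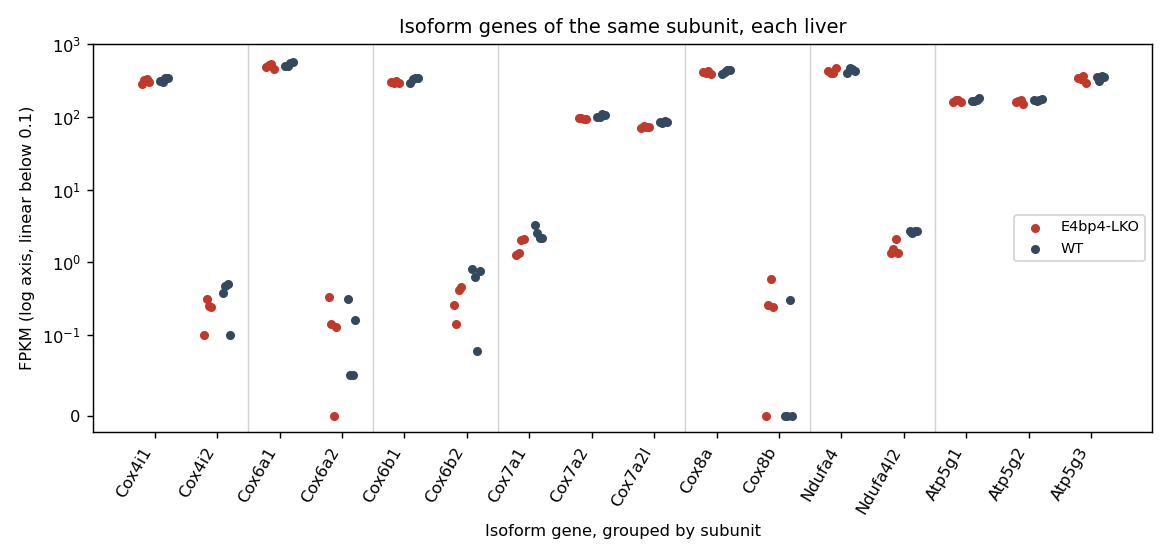
FPKM of genes that encode forms of the same subunit, one point per liver, E4bp4-LKO in red left of WT in dark blue, on a log axis that is linear below 0.1. The forms known from liver lie between 71.1 and 563 FPKM, while Cox4i2, Cox6a2, Cox6b2 and Cox8b lie below 1, and Cox7a1 and Ndufa4l2 between 1.27 and 3.23.

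For subunit 7a the liver held 2 abundant genes. Cox7a2, the liver form, made up 56.0% ± 0.81 of the summed FPKM of the set in E4bp4-LKO and 54.4% ± 0.64 in WT (SD, n = 4 each). Cox7a2l, whose protein is known to join complexes III and IV into supercomplexes, made up 43.0% ± 0.75 in E4bp4-LKO and 44.2% ± 0.37 in WT. Cox7a2l had 80.2, 87.3, 81.9 and 82.8 CPM in E4bp4-LKO livers, against 78.6, 81.1, 94.0 and 92.5 CPM in WT livers, with overlapping groups and a log2 fold change of -0.059 (SE 0.077, adjusted p = 0.669). Its FPKM were 71.1, 75.5, 71.2 and 71.8 in E4bp4-LKO, against 83.8, 80.9, 86.6 and 83.8 in WT, and there the groups did not overlap.

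With library totals, on FPKM and on TPM, Cox7a2l and Ndufa4l2 were the members called, both lower, while with quantile-normalized FPKM no member was. The log2 fold change of Cox7a2l was -0.21 on log2(FPKM + 1) (limma, adjusted p = 0.0334) and -0.21 with library totals (edgeR, adjusted p = 0.0395). With library totals 2.2% of all genes tested were called higher and 12.5% lower, and on FPKM 2.38% were called higher and 13% lower. The 2 members of 77 called lower are thus a smaller share than among all genes on either scale.

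Cox7a1, the heart and muscle form of the subunit, was measured at 13 to 35 counts in a library. It had 0.481, 0.527, 0.772 and 0.803 CPM in E4bp4-LKO livers, against 1.01, 0.854, 0.771 and 0.804 CPM in WT livers, and WT 166 and 167 lay within the range of the E4bp4-LKO livers or just above it. The estimate was -0.43 (SE 0.27, adjusted p = 0.327). Cox5a, which sits on the matrix side of the complex, had the largest estimate above 0 of complex IV, with 142, 138, 141 and 129 CPM in E4bp4-LKO livers, against 109, 116, 135 and 137 CPM in WT livers (log2 fold change 0.15, SE 0.088, adjusted p = 0.307). Cox6c, a small membrane subunit, had 112, 116, 116 and 116 CPM in E4bp4-LKO livers, against 82.8, 102, 118 and 113 CPM in WT livers (log2 fold change 0.14, SE 0.10, adjusted p = 0.391). The E4bp4-LKO livers were nearly equal in Cox6c, and WT 164 was the lowest of the 8 livers in both Cox5a and Cox6c. Cox8a and Cox6a1 had estimates of 0.097 (adjusted p = 0.583) and 0.059 (adjusted p = 0.769).

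In complex V, Atp5a1 and Atp5b encode the α and β subunits of the catalytic head. Atp5a1 had 1034, 1015, 1087 and 1038 CPM in E4bp4-LKO livers, against 779.6, 887, 1007 and 1003 CPM in WT livers. The groups did not overlap, although WT 166 lay just under E4bp4-LKO 144, and the estimate was 0.18 (SE 0.11, adjusted p = 0.287). Atp5b had 1214, 1163, 1198 and 1241 CPM in E4bp4-LKO livers, against 989, 1138, 1227 and 1240 CPM in WT livers, with overlapping groups (log2 fold change 0.068, SE 0.10, adjusted p = 0.714). Atp5f1 and Atp5j, of the stalk that holds the head in place, had estimates of 0.13 (adjusted p = 0.345) and 0.14 (adjusted p = 0.380), and the counts of both were fractional in all 8 files. Atp5s, a coupling factor that is no core subunit, had the lowest estimate of the 16 at -0.020 (SE 0.15, adjusted p = 0.950). Atp5g1, Atp5g2 and Atp5g3 encode the same mature c subunit of the rotor with different import sequences. Atp5g1 made up 25.1% ± 1.17 of their summed FPKM in E4bp4-LKO and 25.1% ± 0.88 in WT, Atp5g2 24.6% ± 0.36 in E4bp4-LKO and 24.8% ± 0.75 in WT, and Atp5g3 50.3% ± 1.48 in E4bp4-LKO and 50.1% ± 1.40 in WT (SD, n = 4 each). The differences between the groups were smaller than the spread between livers.

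The genes around the complexes were read from lists by role. Of 50 tested assembly factors of complexes I to V, none was called higher or lower, and the median log2 fold change was 0.083 by TMM, -0.071 with library totals and -0.065 on FPKM. Their scores followed the subunits' order of livers in WT, with -0.20, -0.086, 0.031 and 0.052 in WT 164 to 167. Of 19 carriers and coenzyme Q genes, 1 rose and none fell, with a median of 0.13 by TMM, -0.024 with library totals and -0.018 on FPKM. The gene was Coq10b, a coenzyme Q binding protein, with 63.6, 61.8, 63.4 and 64.8 CPM in E4bp4-LKO livers, against 43.7, 52.9, 52.9 and 52.7 CPM in WT livers (log2 fold change 0.33, SE 0.075, adjusted p = 0.0236). The groups did not overlap. With library totals and on log2(FPKM + 1) the estimate was 0.17 and did not pass, and by TMM leaving out any of E4bp4-LKO 144, 145 and 179 ended the call as well (largest adjusted p 0.0582).

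The ATP synthase also has an inhibitor, carriers that bring its substrates, and uncoupling proteins that are known to dissipate the gradient. Of the list of this inhibitor, the adenine nucleotide and other carriers and the uncoupling proteins, 3 of 5 tested genes fell, none rose, and the median was -0.37 by TMM, -0.54 with library totals and -0.48 on FPKM. The 2 that did not fall had TMM estimates just above 0, the larger at 0.016. Ucp2, an uncoupling protein family member, had 96.4, 74.2, 79.8 and 71.1 CPM in E4bp4-LKO livers, against 173, 126, 121 and 117 CPM in WT livers (log2 fold change -0.74, SE 0.14, adjusted p = 0.0106). It passed in all 8 fits that left out 1 mouse. The macrophage, stellate and cholangiocyte sums given above were also lower in E4bp4-LKO, and their part in the fall of Ucp2 or of the other 2 genes was not tested.

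Atpif1, the inhibitor that blocks the ATP synthase from running backwards, had 14.4, 14.4, 13.7 and 14.2 CPM in E4bp4-LKO livers, against 19.7, 20.5, 15.9 and 17.2 CPM in WT livers (log2 fold change -0.37, SE 0.093, adjusted p = 0.0308). Slc25a4, an adenine nucleotide translocator, had 7.74, 7.08, 8.53 and 6.16 CPM in E4bp4-LKO livers, against 14.6, 10.6, 10.3 and 8.64 CPM in WT livers (log2 fold change -0.58, SE 0.16, adjusted p = 0.0446). In both genes all E4bp4-LKO livers were below all WT livers. Of the 8 fits that left out 1 mouse, Atpif1 passed without WT 166, WT 167 or E4bp4-LKO 143 only (adjusted p 0.0227 to 0.0914) and Slc25a4 without WT 167 only (adjusted p 0.0214 to 0.117). Without WT 164 and 165 together neither passed, and the estimates were -0.22 for Atpif1 and -0.36 for Slc25a4, each more than 1.5 times smaller. With library totals (edgeR) Atpif1 gave -0.54 (adjusted p = 0.0210) and Slc25a4 -0.75 (adjusted p = 0.0318). On log2(FPKM + 1) (limma) they gave -0.48 (adjusted p = 0.0190) and -0.64 (adjusted p = 0.0345). On these scales 12.5% and 13% of all genes were called lower.

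Among 16 regulators of mitochondrial biogenesis, none rose, 1 fell, and the median was 0.16 by TMM, 0.0030 with library totals and -0.00077 on FPKM. Ppargc1a, which encodes PGC-1α, had 8.92, 9.09, 11.2 and 8.21 CPM in E4bp4-LKO livers, against 13.2, 14.2, 13.0 and 10.6 CPM in WT livers, with WT 167 below E4bp4-LKO 145. The estimate was -0.45 (SE 0.12, adjusted p = 0.0438). It passed without WT 167 or E4bp4-LKO 145 and in no other fit that left out 1 mouse (adjusted p 0.0224 to 0.124), and its counts were fractional in all 8 files. With library totals the estimate of Ppargc1a was -0.61 (edgeR, adjusted p = 0.0238), and on log2(FPKM + 1) it was -0.38 (limma, adjusted p = 0.0374). Esrrg, an oestrogen-related receptor, had 6.85, 7.11, 7.76 and 7.94 CPM in E4bp4-LKO livers, against 2.17, 4.03, 5.54 and 5.25 CPM in WT livers, and missed the threshold (log2 fold change 0.81, SE 0.24, adjusted p = 0.0546), with adjusted p from 0.0328 to 0.131 over left-out mice. Of 18 tricarboxylic acid cycle genes none rose and 1 fell, with a median of 0.022 by TMM and -0.13 with library totals and on FPKM. Idh2, the mitochondrial isocitrate dehydrogenase, had 112, 123, 125 and 139 CPM in E4bp4-LKO livers, against 154, 157, 160.2 and 169.5 CPM in WT livers (log2 fold change -0.36, SE 0.080, adjusted p = 0.0196). The groups of Idh2 did not overlap, and leaving out any of WT 165 and E4bp4-LKO 144 and 145 ended the call (largest adjusted p 0.0632). Its estimate was -0.52 with library totals (edgeR, adjusted p = 0.00335) and -0.51 on log2(FPKM + 1) (limma, adjusted p = 0.00291). Each list's share of called genes stands beside the 4.37% higher and 6.48% lower of all genes, and no test of a list was run.

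The processing bears on the size of every value above and on no call other than those of Cox7a2l and Ndufa4l2 among the members. Leaving out 1 mouse moved the members' median log2 fold change between 0.029 (without WT 164) and 0.15 (without WT 166), beside 0.098 with all mice. Without WT 164 and 165 together it was -0.033, while the median of all genes was 0.011.

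**Figure D5:**
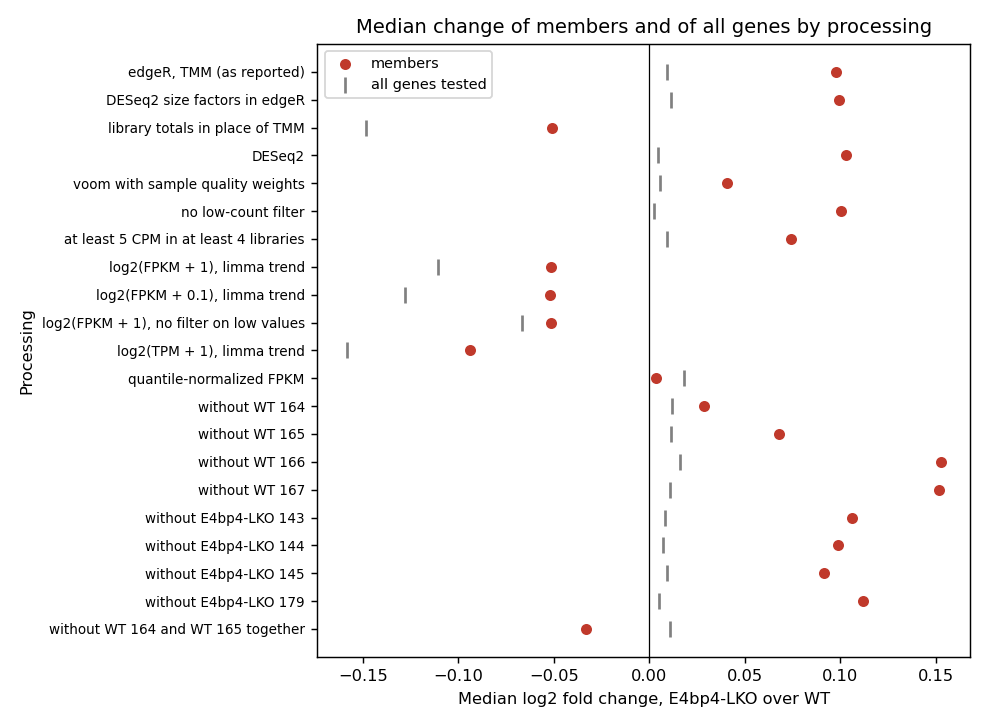
Median log2 fold change of E4bp4-LKO over WT under each way of processing, for the tested members (red points) and for all genes tested (grey bars). The members' median runs from -0.094 on TPM to 0.15 without WT 166, and lies right of the grey bar except with quantile-normalized FPKM and without WT 164 and 165 together.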

How the data were processed

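Whole-liver RNA of 4 E4bp4-LKO and 4 WT mice was sequenced. Per the labels' protocols, mRNA was enriched with oligo-dT or by depletion of ribosomal RNA and primed with random hexamers. HISAT2 is named in the submitters' processing notes. The quantifier, build and strand are not stated there or in the file headers. The authors deposited expected counts per gene, not normalized, and FPKM, normalized for length and library size. Of the entries 25.9% to 27.3% had fractional counts. Genes absent from a file were read as 0, and 29 isoform entries were added to their gene.

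Expected counts were rounded, filtered with filterByExpr (minimum count 10, minimum total 15), TMM-scaled and tested with edgeR 4.0.16 (R 4.3.3), two-sided quasi-likelihood, Benjamini-Hochberg over 13242 genes, threshold 0.05. SE is the estimate over the square root of F. FPKM were tested with limma 3.58.1 (trend, pseudocount 1, at least 1 FPKM in 4 libraries), so those fold changes understate low genes. DESeq2 1.42.0, voom, other filters, scalings, symbol choices and left-out mice were alternatives. On simulated counts, drawn independently for each gene, edgeR recovered 59.7% of genes changed 1.5-fold and 95.5% of those changed 2-fold. Genes of low counts were not among those changed, and no shift shared by the genes of a liver was simulated. These rates therefore need not hold for the members. A p-value sets the difference between the groups against the spread between these livers. The labels do not say whether the mice differ in more than genotype, so it cannot tell genotype from another difference between the groups. Named are Nfil3, per complex the 3 members with the smallest p, the 2 of highest FPKM, the largest and smallest estimates and the tissue forms, and from other lists genes among the 3 with the smallest p. Cox7b, Ndufa8 and Ndufb7 were named after their values were seen. Members and lists were chosen with earlier results of these data known. The values of 1 member are not reported singly here, and it is left out of the figures with a row for each member.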

Additional observations from a re-analysis of the deposited data

Results flagged for a closer look

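Single livers lay far from the other 3 of their group in 3 of the 44 groups checked, where chance gives about 1 in 20. The level of Sdhb in E4bp4-LKO 145 was 209 CPM, while the other E4bp4-LKO livers had 191 to 194. Uqcrb in WT 164 was at 83.6 CPM, while the other WT livers had 108 to 112. Cox6c in E4bp4-LKO 143 was at 112 CPM, while the other E4bp4-LKO livers had 116 each, a gap of a few percent. The gap took up 0.84, 0.86 and 0.85 of the group's range.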

How the results depend on the processing

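No paired analysis was possible because the mouse numbers are not shared between the groups. The count of members called higher was 0 in every alternative run. The count called lower was 2 with library totals, with log2(FPKM + 1), with a pseudocount of 0.1, without the FPKM filter and on TPM, and 1 with voom, without E4bp4-LKO 145 (range 0 to 1 over left-out mice) and at an adjusted p under 0.1. The median log2 fold change of all members was -0.051 with library totals, -0.052 in the 3 FPKM fits, -0.094 on TPM, -0.033 without WT 164 and 165, 0.041 with voom (20 of 77 estimates below 0) and 0.0036 with quantile-normalized FPKM (36 of 77 below 0). That of complex I was -0.049 with library totals and on FPKM, -0.050 with the pseudocount of 0.1, -0.092 on TPM and -0.043 without WT 164 and 165. Complex II gave -0.024 with totals and on FPKM and -0.067 on TPM. Complex III gave -0.060 with totals, -0.056 on FPKM, -0.098 on TPM, -0.023 with quantile-normalized FPKM and -0.026 without WT 164 and 165. Complex IV gave -0.060 with totals, -0.061 on FPKM, -0.10 on TPM, -0.039 with quantile-normalized FPKM and -0.063 without WT 164 and 165. Complex V gave -0.051 with totals and on FPKM, -0.093 on TPM, -0.0067 with quantile-normalized FPKM and -0.030 without WT 164 and 165.

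Of the 15 members followed singly, the sign turned for the following, all far from the threshold. With library totals, in order with log2(FPKM + 1), a pseudocount of 0.1 and TPM, Sdha gave -0.018, -0.019, -0.019 and -0.061, Sdhd -0.029, -0.029, -0.029 and -0.072, Uqcrh -0.066, -0.065, -0.065 and -0.11, Cox5a -0.0027, -0.0040, -0.0040 and -0.046, Atp5f1 -0.016, -0.017, -0.017 and -0.060, and Atp5j -0.012, -0.015, -0.015 and -0.058. Without the FPKM filter they were as with it. Cox6c gave -0.0032 with totals and -0.042 on TPM. On TPM alone Uqcrb gave -0.0015, Uqcrc1 -0.022 and Atp5a1 -0.0080. With quantile-normalized FPKM Sdha gave -0.0041 and Uqcrh -0.031. Without WT 164 and 165 Sdhd gave -0.0093, Uqcrh -0.0040, Cox6c -0.0029 and Atp5j -0.0058. The causes were not tested. Over left-out mice the median of all members ran from 0.029 to 0.15. Counting Ndufa4 in complex IV and leaving out Ndufa4l2, Cox7a2l and Atp5s moved no median by more than the spread between livers. The depth, 23805540 counts or more, limits only Cox4i2, Cox6a2, Cox6b2, Cox8b, Cox7a1 and Ndufa4l2, and counting error is all that it covers.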

Other observations

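The medians of the ribosome and import lists also depended on the scale. Of 78 mitochondrial ribosomal protein genes, which serve translation of the mitochondrially encoded subunits, none was called in either direction in edgeR's test, 3 had an unadjusted p under 0.05, and the median log2 fold change of E4bp4-LKO over WT was 0.076 by TMM, -0.073 with library totals and -0.075 on FPKM. Their scores were 0.0086 to 0.070 in E4bp4-LKO, against -0.16, -0.080, 0.067 and 0.057 in WT 164, 165, 166 and 167, the same low livers as for the respiratory subunits. Of 20 genes of mitochondrial import and the inner membrane, none was called, 2 had an unadjusted p under 0.05, and the median was 0.068 by TMM, -0.082 with library totals and -0.080 on FPKM. The 79 tested cytosolic ribosomal protein genes, also short, had no call, none with an unadjusted p under 0.05, and a median of -0.039 by TMM, -0.20 with library totals and -0.19 on FPKM, below 0 on each. Their scores were -0.081 to 0.021 in E4bp4-LKO, against -0.018, -0.033, 0.087 and 0.033 in WT 164 to 167.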
